A study of Mus musculus with 9 samples.

Results

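Uroplakins are the membrane proteins that line the urinary tract, and 5 of them, together with 4 genes of urothelial or squamous epithelial surfaces, are described here over embryoid body differentiation. The set holds Upk1a, Upk1b, Upk2, Upk3a and Upk3b, the surface antigens Psca and Ly6d, the cornified envelope gene Sprr1a and the secreted FGF carrier Fgfbp1. The 9 genes were chosen from results of these same arrays, out of 22180 genes measured, because of what is known of the family and because several were much higher at day 21. Their changes are therefore given as a description, without a test. Each was read from the 1 probe set that carries its symbol alone, so no member rests on a choice among probe sets.

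Mouse embryonic stem cells carrying an Afp::GFP transgene, green fluorescent protein under the alpha-fetoprotein promoter, were grown as attached embryoid bodies in serum, per the labels. All 3 groups share that transgene and culture, and differ in the length of differentiation, which was 4, 7 or 21 days, with 3 arrays per day. Cells sorted for the reporter by flow cytometry gave the RNA of each array, which was amplified from a picogram-scale input. Afp marks visceral endoderm and fetal liver rather than urothelium, and the sort selects by promoter activity, not by cell type. The study set out to follow endoderm differentiation, per its title. Whether the 3 arrays of a day are separate cultures is not stated in the labels, and the p-values then speak only of the scatter among these samples, possibly technical.

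The values are log2 signals, on which 1 unit is a doubling of signal. Background was taken as the 95th percentile of 1105 olfactory receptor genes on each array, which lay between 5.91 and 6.19. Against it, Afp itself was below background on the day 4 arrays, with a mean of 5.72 ± 0.18 (SD, n = 3), and read 10.60 ± 0.07 at day 7 and 13.07 ± 0.11 at day 21. The gene that defines the sort was thus above background at days 7 and 21 and not at day 4. Of 10 endoderm markers listed for the labelled cells, 6 were above background at day 4, 9 at day 7 and 10 at day 21. In such bulk samples, fewer cells of a type and less RNA per cell cannot be told apart.

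Uroplakins form the rigid plaques of the apical membrane of umbrella cells, the outermost layer of the urothelium, and these plaques are part of the barrier between urine and blood. The tetraspanins Upk1a and Upk1b each pair with a partner, Upk1a with Upk2 and Upk1b with Upk3a or Upk3b. Upk1b and Upk3b are also made by mesothelium, the lining of the body cavities. Psca and Ly6d belong to the Ly6 family of small surface proteins held by a lipid anchor, and Sprr1a is cross-linked into the envelope of squamous cells. The bladder epithelium arises from endoderm, while epidermis arises from surface ectoderm.

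RefSeq promoter sequence (mouse build GRCm38.p6) was at hand for 5 of the 9 genes, Upk1a, Upk3a, Upk3b, Sprr1a and Fgfbp1. The 250 bases before the start site are printed for 4 of them, 5′ to 3′ on the strand of the gene, to show which motif letters these genes, all higher at day 21, do and do not carry there. They lie at chr7:30612735-30612984 on the minus strand (Upk1a), chr15:85016891-85017140 on the plus strand (Upk3a), chr5:136038246-136038495 on the plus strand (Upk3b) and chr3:92485882-92486131 on the minus strand (Sprr1a). Capitals mark matches on either strand to 6 motifs. These were TATAAA for the TATA box, TGANTCA for AP-1 factors, GGAATG for TEAD factors, AACNNGTT for Grainyhead factors, AGATAA for GATA factors and CCACCC for KLF factors.
Upk1a: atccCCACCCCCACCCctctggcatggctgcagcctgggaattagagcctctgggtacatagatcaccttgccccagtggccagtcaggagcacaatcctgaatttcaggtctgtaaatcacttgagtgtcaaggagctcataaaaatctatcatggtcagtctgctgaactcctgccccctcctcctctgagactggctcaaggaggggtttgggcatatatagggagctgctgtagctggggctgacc
Upk3a: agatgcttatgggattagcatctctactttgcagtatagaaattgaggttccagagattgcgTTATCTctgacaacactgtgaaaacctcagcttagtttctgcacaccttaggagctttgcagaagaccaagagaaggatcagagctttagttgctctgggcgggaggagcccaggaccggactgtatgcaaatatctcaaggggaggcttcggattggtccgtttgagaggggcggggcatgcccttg
Upk3b: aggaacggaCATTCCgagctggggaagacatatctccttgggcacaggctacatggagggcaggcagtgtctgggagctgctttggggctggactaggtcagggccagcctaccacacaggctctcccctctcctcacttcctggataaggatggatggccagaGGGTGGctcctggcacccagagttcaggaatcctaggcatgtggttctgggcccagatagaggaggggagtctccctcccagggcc
Sprr1a: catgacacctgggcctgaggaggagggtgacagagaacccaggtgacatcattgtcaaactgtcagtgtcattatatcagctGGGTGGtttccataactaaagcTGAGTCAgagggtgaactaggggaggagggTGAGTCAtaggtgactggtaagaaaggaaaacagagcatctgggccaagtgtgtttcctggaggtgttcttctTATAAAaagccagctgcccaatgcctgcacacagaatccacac

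Sprr1a was the member with the most matches. Its window held TATAAA at -43 to -38 from the start site and the AP-1 sequence TGAGTCA at -146 to -140 and at -116 to -110. A KLF sequence stood at -168 to -163. Among 32851 mouse promoters of the same length, 12.4% held TATAAA and 6.75% the AP-1 sequence on either strand. Upk1a held adjoining KLF sequences at -246 to -241 and -240 to -235, and Upk3b held 1 at -86 to -81 with a TEAD sequence at -241 to -236. The share of all promoters was 28.1% for the KLF sequence and 12.6% for the TEAD sequence. Upk3a held only a GATA sequence, at -188 to -183, found in 9.99% of promoters, and the Fgfbp1 window held only a KLF sequence at -97 to -92. None of the 5 windows held the Grainyhead sequence, which 3.64% of promoters carry. No match overlapped another, and a match says only that these letters are present.

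Between days 4 and 7, Psca differed by 0.75 log2 units and the other members by at most 0.34, while all 9 were higher at day 21, by between 0.44 and 5.46 log2 units over day 7. The order of the signal differences at day 21 against day 7 was Upk1b, Sprr1a, Fgfbp1, Upk1a, Ly6d, Upk3b, Upk3a, Psca and Upk2. By day mean, 4 of the 9 were above background at day 4, 5 at day 7 and all 9 at day 21, against 53.7%, 54.1% and 56.3% of all genes. The 3 day 21 arrays stood above the 3 day 7 arrays for each of the 9 genes, as they did for 17.1% of all genes. Of the 9, 8 were called higher at day 21 than at day 7, where 12.4% of all genes were called higher and 10.7% lower. The rule that chose the members used this comparison, so nothing is read from these counts.

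**Figure D1:**
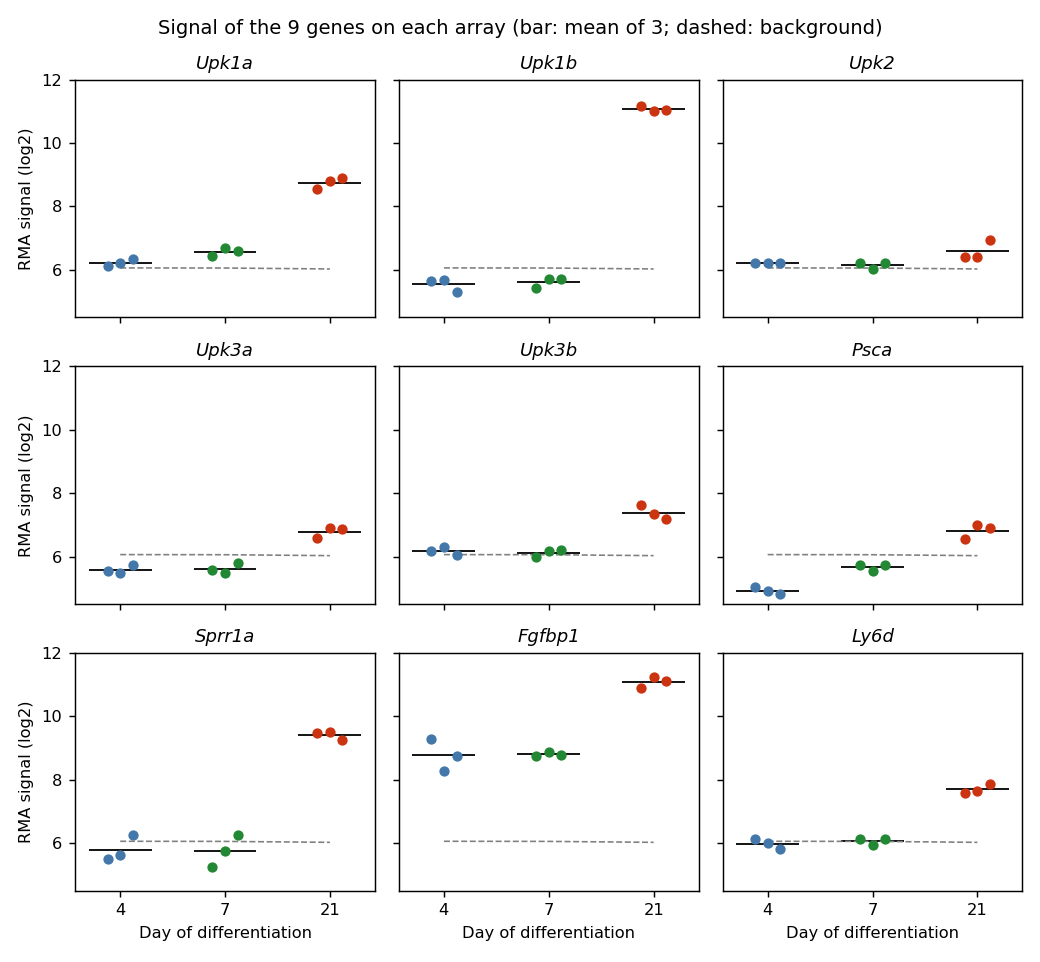
RMA signal (log2) of each of the 9 genes on each of the 9 arrays by day of differentiation, with a bar at the mean of 3 arrays and a dashed line at the background of each day. The day 21 points lie above all earlier points in each panel, by most for Upk1b (11.08 against 5.62 at day 7) and by least for Upk2 (6.59 against 6.15).

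Upk1b, the tetraspanin that carries Upk3a or Upk3b to the surface, changed most of the set. It read 5.66, 5.67 and 5.31 on the day 4 arrays, 5.44, 5.72 and 5.71 on the day 7 arrays and 11.18, 11.01 and 11.05 on the day 21 arrays. The first 6 values are all below background and overlap between days, and the 3 late values stand far above them and close to each other. Means were 5.55 ± 0.20, 5.62 ± 0.16 and 11.08 ± 0.09 (SD, n = 3). With the earlier arrays set at background, day 21 was at least 32.4-fold above day 7. The difference of the signals themselves was 5.46 ± 0.13 (SE), of which at least 5.02 lies above background.

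Upk1a, the other tetraspanin of the plaque, was above background on all 9 arrays. Its signal was 6.12, 6.22 and 6.34 at day 4, then 6.43, 6.69 and 6.59 at day 7, and 8.54, 8.82 and 8.90 at day 21. It is the only uroplakin whose 3 day 7 arrays all lay above its 3 day 4 arrays, but by a difference of just 0.34 ± 0.12 (SE), which was not called. From day 7 to day 21 the mean went from 6.57 ± 0.13 to 8.75 ± 0.19, a 4.54-fold difference (2.18 ± 0.12 log2 units). Both tetraspanins were therefore high at day 21, while only Upk1b started from below background. Upk1a started just above it, at 6.23 ± 0.11 on day 4 against a background of 6.06.

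The partners of the tetraspanins changed less. Upk3a, whose cytoplasmic tail is a distinguishing feature of the plaque, was below background on the 6 early arrays, at 5.56, 5.49 and 5.72 and then 5.59, 5.47 and 5.80. At day 21 it read 6.58, 6.90 and 6.88, at least 1.66-fold above the background at day 7. The difference of its signals was 1.17 ± 0.13 log2 units, from 5.62 ± 0.17 to 6.79 ± 0.18. Upk3b, the partner also found in mesothelium, lay close to background at 6.17, 6.30 and 6.05 on day 4 and at 5.996, 6.18 and 6.20 on day 7. It read 7.62, 7.35 and 7.18 at day 21, above all earlier arrays and 2.39-fold over day 7 (1.26 ± 0.13). The array with the highest Upk3b at day 21 was the one with the lowest Upk1a and Upk3a.

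Upk2, the partner of Upk1a, differed least between days. It read 6.22, 6.22 and 6.21 at day 4, 6.22, 6.01 and 6.22 at day 7 and 6.42, 6.40 and 6.95 at day 21. These values stay within a unit of background, and 1 day 21 array stands apart from the other 2. The day 21 difference from day 7 was 0.44 ± 0.15 (1.35-fold), which was not called. Leaving out that high array reduced the difference to 0.26, a change of more than 1.5 times, and leaving out either of the other day 21 arrays brought a call. So the tetraspanin Upk1a and its partner Upk2 did not show changes of like size, and levels are not compared between the 2 genes because each probe set has its own response.

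Both Ly6-family members were higher at day 21, and Psca also moved earlier. Psca, prostate stem cell antigen, is made in bladder, stomach and prostate epithelium. It read 5.03, 4.92 and 4.83 at day 4, 5.74, 5.55 and 5.74 at day 7 and 6.57, 6.98 and 6.92 at day 21, so that the 3 days do not overlap. The step from day 4 to day 7, 0.75 ± 0.13, lies wholly below background and gets no fold. At day 21 Psca was at least 1.70-fold above the background at day 7, with a signal difference of 1.15 ± 0.13. Ly6d, a marker of stratified epithelium and of early B cells, read 6.13, 5.996 and 5.81 at day 4 and 6.13, 5.93 and 6.12 at day 7, around the background. At day 21 it read 7.58, 7.64 and 7.88, at least 3.02-fold over day 7 with the arrays below background set at it (signal difference 1.64 ± 0.12).

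Sprr1a, a small proline-rich protein of the cornified envelope, had the second largest difference of the set. Its values were 5.50, 5.62 and 6.25 at day 4, 5.26, 5.74 and 6.25 at day 7 and 9.47, 9.51 and 9.25 at day 21. The early arrays scatter on both sides of background, with 1 of 3 above it on each day, and the late arrays stand together far above them. The mean went from 5.75 ± 0.49 at day 7 to 9.41 ± 0.14 at day 21, a signal difference of 3.66 ± 0.25. With the arrays below background set at it, day 21 was at least 10.1-fold above day 7.

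Fgfbp1 is the 1 member that was well above background from the start. The protein it encodes releases FGFs from the extracellular matrix and is made by squamous and other epithelia. Its signal was 9.29, 8.28 and 8.76 at day 4, 8.77, 8.89 and 8.79 at day 7 and 10.90, 11.23 and 11.13 at day 21. The day 4 arrays spread over a whole unit and enclose the day 7 arrays, whereas the day 21 arrays lie above both. The difference between days 7 and 21 was 4.83-fold (2.27 ± 0.21).

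Between days 4 and 7 the median change of the 9 genes was 0.04, against -0.01 for all genes. Only Psca was called, higher at day 7, where 6.98% of all genes were called higher and 6.47% lower. Groups of 3 did not overlap, with day 7 above, for Upk1a and Psca, and for 14% of all genes. The median at day 21 was 1.64 over day 7 and 1.89 over day 4, against -0.03 for all genes in both. Of the 9, 8 were called higher at day 21 than at day 4, against 15% of all genes called higher and 14.1% called lower, and for all 9 the day 21 arrays lay above the day 4 arrays, against 19.4% of genes. Against day 4, 4 members were above background on all 9 arrays, and the day 21 difference was 5.77-fold for Upk1a, 4.95-fold for Fgfbp1, 1.21 ± 0.13 log2 units for Upk3b and 0.37 ± 0.15 for Upk2, which was not called. The 3 comparisons share arrays, so these counts are not independent of each other. The members were chosen partly for higher day 21 signal, so nothing is read from the counts against day 4 either. The lowest difference of a called member, that of Psca at 1.15, and the value of Upk2 just outside, at 0.44, mark where the call fell for day 21 against day 7.

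**Figure D2:**
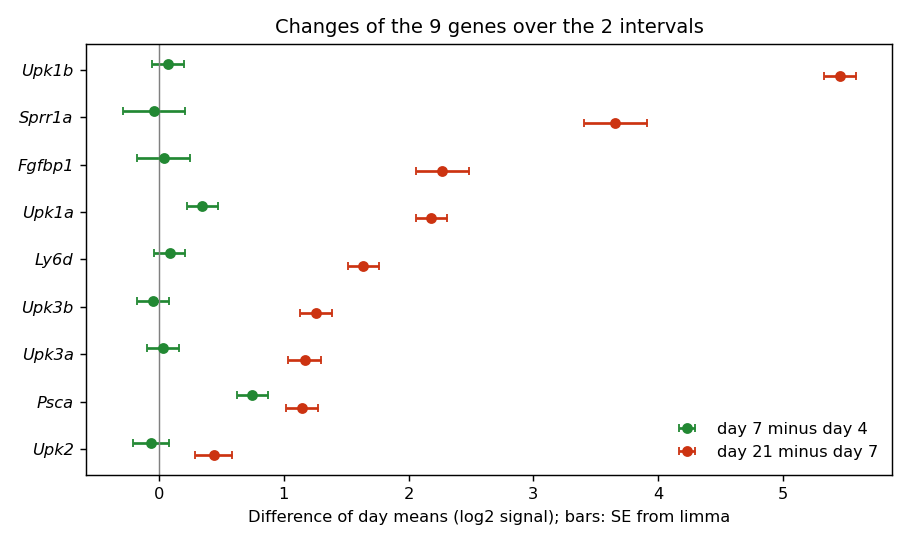
Difference of day means (log2 signal) for each of the 9 genes, with bars at ± SE from limma, for day 7 minus day 4 and for day 21 minus day 7. The early differences lie between -0.07 and 0.75 and the late ones between 0.44 and 5.46, with Upk1b at the top and Upk2 at the bottom.

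The machinery that carries uroplakins to the surface moved in part. In urothelium, fusiform vesicles bring the plaques to the apical membrane with the help of Rab27b, Mal and other carriers. Of 12 listed carriers and uroplakin-like genes, 6 rose and 0 fell at day 21 against day 7, with a median of 0.32. Over all genes, 12.4% were called higher and 10.7% lower in this comparison, and the counts of this and the following lists stand beside those shares. Mal, a raft protein of apical transport, rose by 3.16 ± 0.18 (SE; limma adjusted p = 6.43e-07), from 5.79 ± 0.15 to 8.95 ± 0.36. Sytl2, a Rab27 effector, rose by 2.30 ± 0.15 (limma adjusted p = 1.95e-06), and Rab27b by 1.50 ± 0.18. Upk3bl, a gene similar to Upk3b, rose by 1.08 ± 0.11. Mal, Sytl2 and Rab27b started below background, and counted from it their differences were at least 2.89, 2.05 and 0.72. Sizes printed for other genes that started below background are likewise differences of signal whose lower end is not above it. Vamp8, a fusion protein of exocytosis, and Myo5b, a motor of recycling vesicles, had already risen by day 7, by 1.68 ± 0.13 and 1.11 ± 0.13, among 3 risers and 0 fallers in that interval. All 12 were above background at day 21.

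The other tetraspanins, a family that includes Upk1a and Upk1b, had a median of -0.04 from day 7 to day 21. Of 28 measured, 8 rose and 3 fell, and the share of fallers is that of all genes. Tspan8, a tetraspanin of gut epithelium, rose by 4.12 ± 0.17 (limma adjusted p = 9.21e-08) from below background to 9.44 ± 0.30. Tspan15 rose by 1.30 ± 0.32 and Cd9 by 1.03 ± 0.12, while Tspan18 fell by 1.01 on the log2 scale. The count of fallers moved to 7 or 8 when the arrays were rescaled, to 5 with a replicate block, and to 6 without 1 of the day 21 arrays (replicate 3). Between days 4 and 7, 8 tetraspanins rose and 2 fell (1 without day 4 replicate 3 or day 7 replicate 1), with the largest rises in Tspan33 (0.93 ± 0.12) and Tspan12 (0.90 ± 0.14).

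Transcription factors known from urothelial differentiation rose more often than not. Of 17 measured, 11 rose and 2 fell from day 7 to day 21, with a median of 1.16. Ehf, an ETS factor of epithelia, rose by 3.67 ± 0.18 (limma adjusted p = 2.28e-07), and Elf3, a related factor, by 1.44 ± 0.26. Grhl3, a Grainyhead factor needed for umbrella cells and epidermis, rose by 1.93 ± 0.24. Klf5 rose by 1.96 ± 0.12 after a fall of 0.78 by day 7, when its signal was 8.32 ± 0.16. Foxa1, a factor of endoderm and bladder, rose in both intervals, by 0.74 ± 0.09 and then 1.38 ± 0.09. Pparg, which drives umbrella cell genes together with its partner Rxra, rose by 1.19 ± 0.14 to a signal of 6.15 ± 0.26, near background.

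Trp63, the p63 factor of basal and squamous layers, rose by 1.16 ± 0.10 (limma adjusted p = 2.09e-05), from below background to 6.70 ± 0.08, and by at least 0.64 counted from background. In contrast, Tbx3 fell by 2.74 on the log2 scale after a rise of 1.56 ± 0.13 by day 7. Gata3 changed by -0.45 ± 0.12 (limma adjusted p = 0.0173), a call that was lost without day 7 replicate 3, without day 21 replicate 1 or 2, and with the mean of probe sets. Irf1 changed by -1.16 ± 0.16 by day 7 and did not pass afterwards (0.17 ± 0.16). Between days 4 and 7 the list counted 3 risers and 2 fallers.

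Keratins and junction genes of urothelium had the largest share of risers among the 11 lists in the late interval. The lists overlap and were drawn up with earlier results of these data known, so this order is only a description. Of 21 measured in the urothelial list, 16 rose and 0 fell from day 7 to day 21, with a median of 0.90. All 21 were above background at day 21. Among basal-layer keratins, Krt15 rose by 6.46 ± 0.13 (limma adjusted p = 2.83e-09), Krt17 by 5.56 ± 0.19 and Krt14 by 3.52 ± 0.16. Krt20, the keratin of umbrella cells and of gut, rose by 3.64 ± 0.22 (limma adjusted p = 1.2e-06), and Cldn8, a tight junction claudin, by 4.00 ± 0.20. All 5 were below background at day 7, and counted from that background the differences were at least 6.22, 4.85, 3.33, 2.43 and 2.98 in the order named. The keratins of simple epithelium, Krt8 and Krt18, did not pass in this interval (0.17 ± 0.17 and -0.10 ± 0.19). Nor did Cldn7, Shh and Slc14a1, although Shh was called in 5 alternatives and Slc14a1 in 1. By day 7, Cldn7 and the receptor Fgfr3 had risen, by 2.12 ± 0.15 and 2.19 ± 0.19, among 4 risers and 2 fallers (1 faller without day 4 replicate 1 or day 7 replicate 1). Keratins of the basal layer and Krt20, of umbrella cells and gut, were thus above background in the same day 21 RNA.

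Part of the cornified envelope list rose. Of 40 measured, 19 rose and 0 fell from day 7 to day 21, with a median of 0.36, and 22 were above background at day 21. Krt4, the keratin of non-keratinising squamous epithelium, rose by 4.88 ± 0.19 (limma adjusted p = 5.29e-08) to 9.98 ± 0.06. Scel, sciellin, rose by 2.86 ± 0.13, Ppl, periplakin, by 2.20 ± 0.15, and Ivl, involucrin, by 1.53 ± 0.15. Krt6a, a keratin of stressed epidermis, rose by 2.74 ± 0.31 with a wide spread at day 21 (7.55 ± 0.73), and by at least 1.49 counted from background. Krt16, Dsg1a and Dsg3 were called higher but stayed below background by their day 21 means, at 5.82 ± 0.13, 5.72 ± 0.34 and 5.94 ± 0.22. The late epidermal genes Lor, loricrin, and Tgm1, a transglutaminase that cross-links the envelope, did not pass (-0.21 ± 0.13 and -0.24 ± 0.25), with means above background on each day. Flg, filaggrin, stayed below background on each day by its mean, at 5.23 ± 0.08 on day 21. Between days 4 and 7, 3 rose and 2 fell, with Dsg2 at 1.17 ± 0.18 and Dsc2 at 0.88 ± 0.16, both desmosomal cadherins. Only 1 fell without day 4 replicate 1 or 3, without day 7 replicate 1 or 2, or with days 4 and 7 fitted alone.

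**Figure D3:**
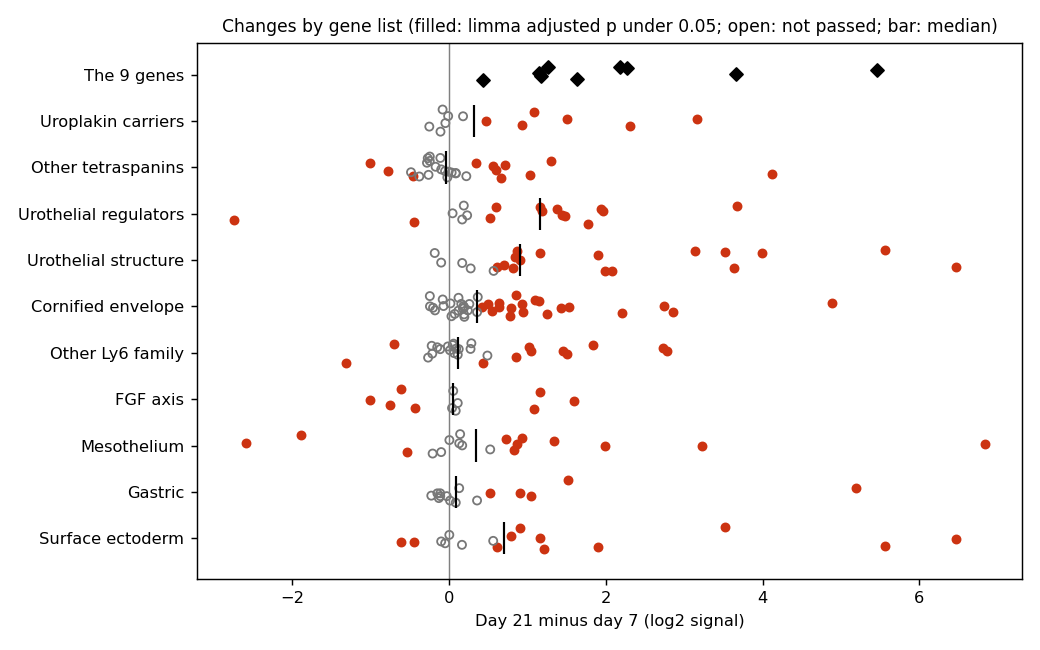
Day 21 minus day 7 difference (log2 signal) of each gene in 10 lists and of the 9 genes described here (diamonds, not tested), with filled points for limma adjusted p under 0.05, open points for genes that did not pass and a bar at the median of each list. Urothelial regulators and urothelial structure genes have medians of 1.16 and 0.90, and the other tetraspanins lie around 0.

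The Sprr genes that lie next to Sprr1a did not pass the test. On chromosome 3 its 5 measured neighbours on 1 side are all Sprr genes, Sprr3, Sprr1b, Sprr2k, Sprr2h and Sprr2f, and none of the 5 passed. Sprr1b, the nearest in kind, changed by 0.19 ± 0.18 (limma adjusted p = 0.512) and Sprr3 by 0.24 ± 0.17 (limma adjusted p = 0.371), both below background on all days by their means. Sprr2b, which is not among the nearest neighbours, passed at 0.54 ± 0.17 (limma adjusted p = 0.0478), a call lost in 11 of 16 alternatives, including without each of 8 of the 9 arrays. On the other side Sprr4 did not pass, and Ivl rose by 1.53 ± 0.15. Whether probes of 1 Sprr gene also read another was not tested. In the Ly6 cluster of chromosome 15, among 10 neighbours of Ly6d, 3 rose and 0 fell, namely Ly6k (1.45 ± 0.20), Lynx1 (1.04 ± 0.11) and Lypd2 (0.86 ± 0.19). Psca lies near the same cluster, and its 10 neighbours held 4 risers and 0 fallers, of which Lynx1 and Lypd2 are shared.

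The genes around each uroplakin were counted in the same way. Among 10 genes around Upk1b on chromosome 16, 3 rose and 1 fell, and the genes on either side, B4galt4 and Tex55, did not pass. Around Upk1a on chromosome 7, 1 rose and 2 fell. Around Upk2 on chromosome 9, 0 rose and 2 fell, and around Upk3a on chromosome 15, 1 rose and 1 fell. Beside Upk3b on chromosome 5 lies a relative that rose, Upk3bl, among 2 risers and 1 faller. Fgfbp1, on the same chromosome, had 5 risers and 2 fallers among 10, with the adjacent Bst1 at 2.05 ± 0.15. These counts stand against 12.4% and 10.7% of all genes called higher and lower, and gene order was taken from RefSeq.

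The Ly6 family outside Psca and Ly6d changed in both directions. Of 27 measured, 9 rose and 2 fell from day 7 to day 21, with a median of 0.11. Plaur, the urokinase receptor, rose by 2.78 ± 0.22 (limma adjusted p = 7.93e-06), Lypd8, a gut surface protein, by 2.73 ± 0.26, and Lypd6b by 1.83 ± 0.12. Ly6e rose by 1.50 ± 0.14 and returned to 10.79 ± 0.21 after a dip to 9.29 ± 0.20 at day 7. Cd59a, an inhibitor of complement, fell by 1.32 on the log2 scale after a rise from 8.41 ± 0.08 to 9.41 ± 0.14 by day 7. The other faller, Cd59b, lost its call without day 7 replicate 1 or 2 or without day 21 replicate 3.

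Receptors that could read the FGFs carried by Fgfbp1 changed as well. Of 11 listed FGFs, receptors and carriers, 3 rose and 4 fell at day 21 against day 7, with a median of 0.05. Fgfr2, the receptor typical of epithelia, rose by 1.72 ± 0.14 by day 7 and by a further 1.59 ± 0.14 by day 21 (limma adjusted p = 1.37e-05), to 10.11 ± 0.14. Fgfr3 followed with 1.16 ± 0.19 in the late interval, and Hspg2, the matrix proteoglycan perlecan that FGFBP1 binds, with 1.08 ± 0.13. Fgfr4 fell by 0.75 on the log2 scale after its rise of 1.68 ± 0.11. Fgfr1 fell from 9.09 ± 0.16 to 8.48 ± 0.37, a call lost in 5 alternatives. Of the ligands, Fgf10 fell from 5.83 ± 0.16 to 4.83 ± 0.30, below background on both days, and Fgf2 and Fgf7 were below background on all 3 days by their means. Fgf22 fell from 6.40 ± 0.14 to 5.97 ± 0.18, below background, a call lost in 9 alternatives. Fgf1 was above background on all 3 days, at 6.67 on day 21, and did not pass (0.04 ± 0.11). Counts of fallers in this list moved to 2 when day 7 replicate 1 or 2, or day 21 replicate 2 or 3, was left out, and when days 7 and 21 were fitted alone.

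Genes whose signal followed each member over the 9 arrays were named by Pearson correlation (r), as a description. The arrays of a day share a time point, so r mostly reads the step to day 21. Among 2182 genes above background on some day with day means at least 1 unit apart, 448 (20.5%) had r above 0.95 with Upk1b and 385 (17.6%) with Upk1a. The nearest to Upk1b were Krt15 (r = 0.999), Tgm2, a tissue transglutaminase, and Ndrg2. Those nearest to Upk1a were Lurap1l, Afm and Cdh17, where Afm encodes afamin of plasma and Cdh17 an intestinal cadherin. For Upk3a they were Pik3ap1, Nostrin and Plscr2, with 246 genes above 0.95.

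The nearest to Upk3b were Sema3d, Thbs2 and Eln, of which Thbs2 and Eln encode matrix proteins of connective tissue. Its r with the other members ran from 0.67 (Upk2) to 0.98 (Upk1b), so these names do not set it apart. Sprr1a was nearest to Myh14, Cdh3 (P-cadherin) and Krt20, and Ly6d to Cldn8, Mal2 and Dusp1. Fgfbp1 was nearest to Gadd45b, Enpp4 and Vnn1, and Psca, with its earlier step, to Sdr39u1, Rarb and Hs6st1. The number of genes above 0.95 was 177 for Psca, the fewest of the 8 members compared, and 308 to 353 for Sprr1a, Fgfbp1, Upk3b and Ly6d. By rank correlation only 3 of the 24 named genes stayed among the nearest, so the order within these groups of companions is loose. Upk2, whose day means differ by less than 1 unit, was not compared.

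Markers of other epithelia were in the same RNA. Of 18 mesothelial markers, 8 rose and 3 fell from day 7 to day 21 (5 rose when only genes above background were tested), with 10, 8 and 12 above background on days 4, 7 and 21. The log2 of their summed signal was 12.2 to 12.7 at day 4, 13.6 to 13.7 at day 7 and 13.6 to 13.9 at day 21. The list shares the keratins Krt8, Krt18 and Krt19 with the urothelial list. They read 11.24 ± 0.14, 11.59 ± 0.07 and 10.25 ± 0.08 at day 21, so the sum is not of mesothelium alone. Krt19, up by 1.98 ± 0.15, is among the 8 risers. Msln, mesothelin, rose by 3.22 ± 0.20 (limma adjusted p = 1.3e-06) to 8.76 ± 0.08. Wt1, the Wilms tumour factor of mesothelium, did not pass (0.14 ± 0.11), Lrrn4 fell by 1.89 on the log2 scale to below background, and Calb2 and Muc16 were below background on each day by their means. Dcn, a proteoglycan of fibroblasts that stands in this list, rose by 6.84 ± 0.26, from below background. At day 21 it read 12.20, 11.52 and 10.96, and Upk3b was highest and lowest on the same arrays (7.62, 7.35 and 7.18). Upk1b was lowest on another array (11.18, 11.01 and 11.05), and nothing is read from an order of 3 arrays. The part of mesothelium or stroma in the Upk1b and Upk3b signals was not tested.

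Of 15 gastric markers, 5 rose and 0 fell at day 21 against day 7, with a median of 0.08 and 5, 7 and 10 above background on days 4, 7 and 21. Cym, chymosin of the fetal stomach, rose by 5.18 ± 0.11 (limma adjusted p = 2.83e-09), and Gkn2, Ctse and Cldn18 by 1.52 ± 0.14, 1.04 ± 0.11 and 0.91 ± 0.13. Counted from background, the difference of Gkn2 was at least 0.68. Cldn18 also started below background and read 6.19 ± 0.19 at day 21, above background on only 2 of 3 arrays. Muc5ac, Muc6, Atp4a and Atp4b, which define surface, gland and acid-secreting cells, were below background on each day by their means. The log2 of the summed signal of the list was 9.93 to 9.99 at day 4, 9.99 to 10.2 at day 7 and 12.1 to 12.2 at day 21. The day 21 sum is largely that of Cym alone, which read 6.57 ± 0.18 at day 7 and 11.75 ± 0.08 at day 21. The other 10 of the 15 genes, those not called, did not pass between days 7 and 21. What part gastric cells have in the signal of Psca, which stomach also makes, was not tested.

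Surface ectoderm markers rose in part. Of 16 measured, 9 rose and 2 fell from day 7 to day 21, with a median of 0.70 and 8, 8 and 12 above background on days 4, 7 and 21. The risers Krt15, Krt17, Krt14 and Trp63 are shared with the lists above. So are Itgb4 and Itga6 of hemidesmosomes, which rose by 1.91 ± 0.12 and 0.90 ± 0.12. Cdh3 rose by 1.21 ± 0.11. Of the ectodermal factors, Tfap2a changed by -0.61 ± 0.18, a call lost without day 7 replicate 2 or 3 or without day 21 replicate 2 or 3, and Tfap2c was below background on each day by its mean. The log2 of the summed signal was 11.3 to 11.8, 12.1 to 12.3 and 13.6 to 13.8 on the 3 days. This sum includes Krt18, a keratin of simple epithelium, which read 10.52 ± 0.46, 11.70 ± 0.15 and 11.59 ± 0.07. The median change of the list from day 4 to day 7 was 0.01. Whether the sorted cells included squamous or basal cells of another origin was not tested.

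**Figure D4:**
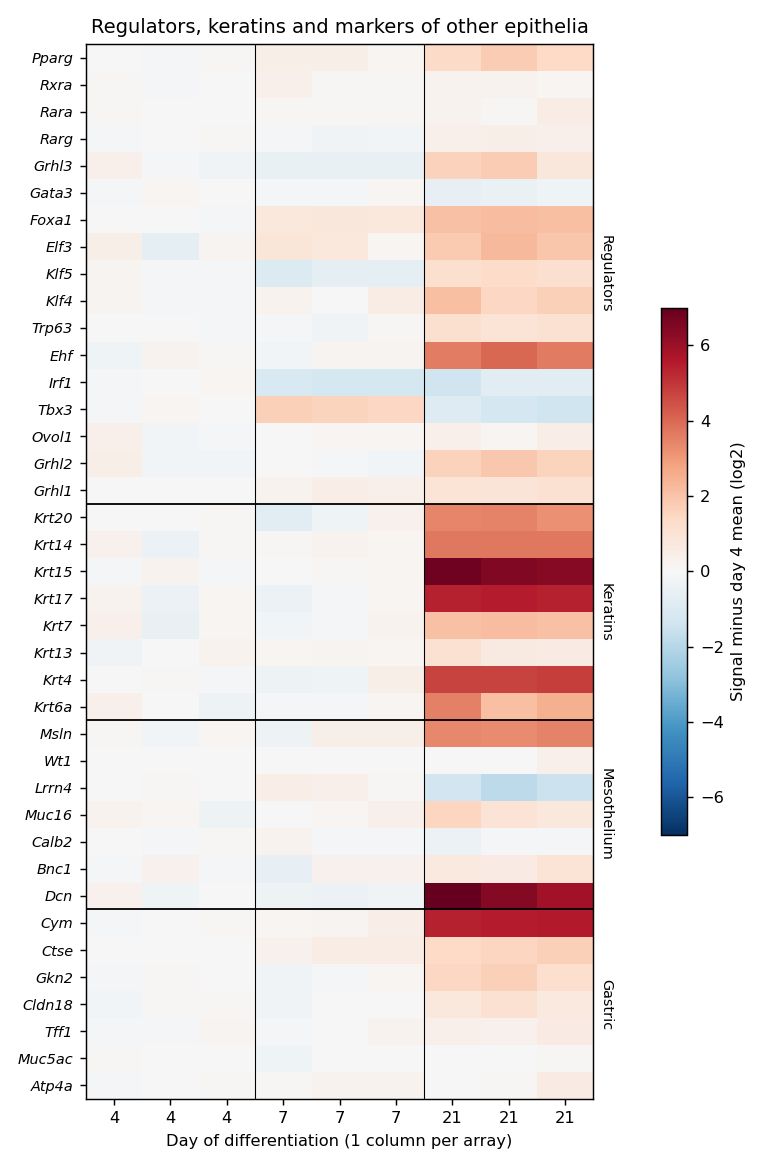
Signal of urothelial regulators, keratins, mesothelial and gastric markers on each of the 9 arrays, as the difference from the day 4 mean of the gene (log2; red higher, blue lower). Krt15, Krt17, Krt4, Dcn and Cym are the deepest red at day 21, while Tbx3 is red at day 7 and blue at day 21 and Lrrn4 is blue at day 21.

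Afp and Alb rose over the same interval as the uroplakins. Afp rose by 2.47 ± 0.11 from day 7 to day 21 (limma adjusted p = 1.78e-07), after 4.88 ± 0.11 from day 4 to day 7. Alb, albumin of the liver, rose by 6.19 ± 0.15, from 5.31 ± 0.08, below background, to 11.50 ± 0.23. Of the 10 listed endoderm markers, 7 were called lower in the late interval, among them Apob (-2.50 ± 0.16) and Gata4 (-1.13 ± 0.13). The 2 called higher were Afp and Alb themselves. Against day 4, 9 of the 10 were called higher at day 21 and 0 lower, with a median of 2.50. Over all genes, 15% were called higher and 14.1% lower in that comparison. The urothelial and squamous transcripts were thus read in RNA that also held the endogenous Afp transcript at its highest level of the 3 days.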

How the data were processed

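Gene expression was measured on 9 Affymetrix arrays, 3 for each of days 4, 7 and 21. The authors deposited a log2 value for each probe set. Affymetrix Expression Console and RMA are named in the submitters' processing notes, with versions not given in the sources used here. The RMA method brings arrays to a common distribution, so a shift shared by all transcripts is mostly lost, and amplification from a very small input can distort ratios of dim transcripts. Precision is limited by the number of arrays, which have no counting depth. No pair of arrays held identical values, and median signals lay between 5.88 and 5.98.

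Of 34365 probe sets, 23521 carried 1 gene symbol, 1814 several and 9030 none here. Only those with 1 symbol were used, and 23328 matched a RefSeq table (GRCm38.p6) by gene number. The brightest probe set per gene left 22180 genes. In R 4.3.3, limma 3.58.1 (lmFit, then eBayes, two-sided) estimated day means from the 9 arrays together, with p-values adjusted by Benjamini-Hochberg over all genes and calls made at adjusted p under 0.05. The procedure was tested on simulated data. A gene is above background where its mean exceeds the 95th percentile of 1105 olfactory receptor genes, a reference chosen after seeing the data. "At least" folds set the earlier arrays, per array, at the higher of that background and the gene's own signal.

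The 9 genes and the 11 gene lists (209 genes, 203 measured) were chosen with earlier results of these data known. List genes are named where called with the largest changes, up to 4 per list for day 21 against day 7 and up to 2 for day 7 against day 4, or up to 2 where none was called. Anchors are Afp, Alb, Trp63, Krt14, Krt20, Pparg, Grhl3, Gata3, Foxa1, Elf3, Klf5, Ivl, Lor, Tgm1, Msln, Wt1 and Lrrn4, with Krt5 not read by a probe set of its own. The 3 genes of highest Pearson r are named for each member with day means at least 1 unit apart. Other names, including all neighbours, were chosen after their values were seen. Motifs were searched with Python 3.11.15. Alternatives were other scalings, a background filter, the mean of probe sets, a fit of 2 days only, an intensity trend, a replicate block and leaving out each array.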

Additional observations from a re-analysis of the deposited data

How the results depend on the processing

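Each of the 3 comparisons was repeated under 16 alternatives. The log2 changes of the 9 genes were recomputed under 13 of them, and over these 351 values they kept their direction where called and stayed within the spread between arrays. At day 21 against day 7, 8 of the 9 genes were called in 12 alternatives, and Upk2 was called too in 4 (genes above background, the replicate block, and without day 21 replicate 1 or 2). Leaving out 1 array gave 2176 to 3285 calls over all genes for day 7 against day 4 (2983 with all arrays), 4108 to 5048 for day 21 against day 7 (5106) and 5423 to 6255 for day 21 against day 4 (6448). Centring arrays on their medians moved the median of all genes to -0.13 at day 21 against day 7 and to -0.14 against day 4, and the share of calls that were higher from 53.7% to 37.6% and from 51.6% to 36.8%. Normalising again by quantiles gave 46.6% and 45.9%. Ranking likeness by Spearman in place of Pearson kept 3 of the 24 named genes. Of the counts of list genes, 985 stayed within 1.5 times of the reported count and 71 did not, and the cause was not tested.

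By the rule used, a correlation above 0.1 in every pair, the replicate numbers of the labels were not taken to pair the arrays. Deviations of same-numbered arrays correlated at -0.05 to 0.26 over 9 pairs, against -0.18 to 0.07 for others. Between days 7 and 21 the 3 same-numbered pairs correlated at 0.08, 0.14 and 0.26, and each of those arrays correlated best with its own number, a hint from the data and not the design. With the replicate block there were 2895, 5041 and 6413 calls for the 3 comparisons. Signals near background limit Upk2, Upk3a, Upk3b, Psca and Ly6d most.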
